A study of Mus musculus with 5 samples.

Results

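The genes described here are the cytokines, chemokines and tumour necrosis factor (TNF) superfamily ligands of mouse haematopoietic stem and progenitor cells (HSPCs), together with their receptors. Members were taken by symbol: names that start with Il, Ccl, Ccr, Cxcl or Cxcr followed by a number, names that start with Tnfsf or Tnfrsf, and Tnf. The rule gave 65 of the 11352 listed genes, namely 7 interleukin ligands and antagonists, 27 interleukin receptor chains, 9 chemokines, 7 chemokine receptors, 6 TNF superfamily ligands and 9 TNF receptor superfamily genes. RNA-seq had been done on 3 libraries from mice with a Cux1 knockdown and an NrasG12D allele (Cux1-low;NrasG12D, here the NrasG12D libraries), and on 2 libraries from mice with the Cux1 knockdown alone (Cux1-low). All 5 libraries therefore share the knockdown, and mice of both groups had been given pI:C, a synthetic double-stranded RNA, together with doxycycline over 4 weeks. Cells had been sorted as lineage-negative, KIT+, SCA1+ and CD135-. The labels give neither strain, age or sex, nor the promoter or recombinase behind either genetic change, nor whether each library came from its own animal. The p-values below therefore measure the spread between these libraries, which may be technical in part.

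Cytokines are secreted or membrane-bound proteins that cells use to signal to each other. Interleukins and the TNF family act through receptor chains that recruit JAK kinases, TIR-domain adaptors or TRAF adaptors, and chemokines act through G protein-coupled receptors that steer cell migration. In the bone marrow, interleukin-1, TNF and interferons push stem cells out of rest during inflammation, CXCL12 and its receptor CXCR4 hold them in the niche, and interleukin-7 drives early lymphoid growth. Many receptors have more than a single chain, so a cell can carry 1 chain of a receptor without its partner.

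The files give no counts, and read numbers here are inferred from the smallest step between values in each library. On that basis the libraries held 16489711 to 20262498 reads over the listed genes. Expression is given as the normalized CPM of the deposited table. These values appear to be read counts scaled to library size and by a composition factor for each library, which no header or label states. By the inferred read numbers, 1 read was worth 0.0481 to 0.0608. The member with the fewest reads in any library had 13. Differences were tested with limma on log2(normalized CPM + 1) over all 11352 genes, p-values adjusted by Benjamini-Hochberg, and 0.05 as the threshold. The targeted genes themselves were level, Cux1 with 311, 279 and 307 normalized CPM in NrasG12D and 306 and 281 in Cux1-low libraries, and Nras with 126, 124 and 113 against 144 and 115. Neither value checks the genotype labels, since both groups carry the knockdown and the mRNA level does not tell the Nras alleles apart. NrasG12D library 3 lay apart from the other NrasG12D libraries, at -4.17 on a first principal component that placed those at 29.1 and 38.0, and the Cux1-low libraries at -32.8 and -30.1. Of 12 genes of the sort gate and of stem cells, 12 were listed, Kit and Cd34 at the highest levels. Flt3, the gene of the excluded marker CD135, was also present, at 196, 165 and 230 normalized CPM in the NrasG12D libraries and 326 and 388 in the Cux1-low libraries. The summed level of the 12 genes was 2250, 1880 and 3370 normalized CPM in NrasG12D libraries 1, 2 and 3, against 4250 and 4380 in the Cux1-low libraries. In 9 of the 12 all NrasG12D libraries lay below both Cux1-low libraries, against 27.0% of all listed genes. Cd48 lay higher without overlap, and none of the 12 passed the test. The part of this list in the differences below was not tested. In bulk RNA, fewer cells of a type and less RNA per cell cannot be told apart.

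Between the groups, 2 members rose and 2 fell in the NrasG12D libraries, and 61 did not pass. Cxcl2, a neutrophil-attracting chemokine, and Tnf, the founding inflammatory cytokine of its family, rose. Il12rb1 and Il1r1, which encode receptor chains for interleukin-12 and interleukin-1, fell. Over all listed genes, 0.255% were called higher and 0.872% lower by the same rule, 1.13% in either direction. Of the members, 3.08% were called in each direction. The sign was negative for 42 of 65 members and the median log2 fold change was -0.40, while 50.3% of all listed genes had a negative sign and their median was near 0. In 36 members every NrasG12D library lay below both Cux1-low libraries, and in 7 every NrasG12D library lay above them. The shares of all listed genes with groups separated in this way were 27.0% lower and 26.5% higher, 53.5% in either direction. The genes were chosen with earlier results of these data known, so these shares describe the family and test nothing about it.

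**Figure D1:**
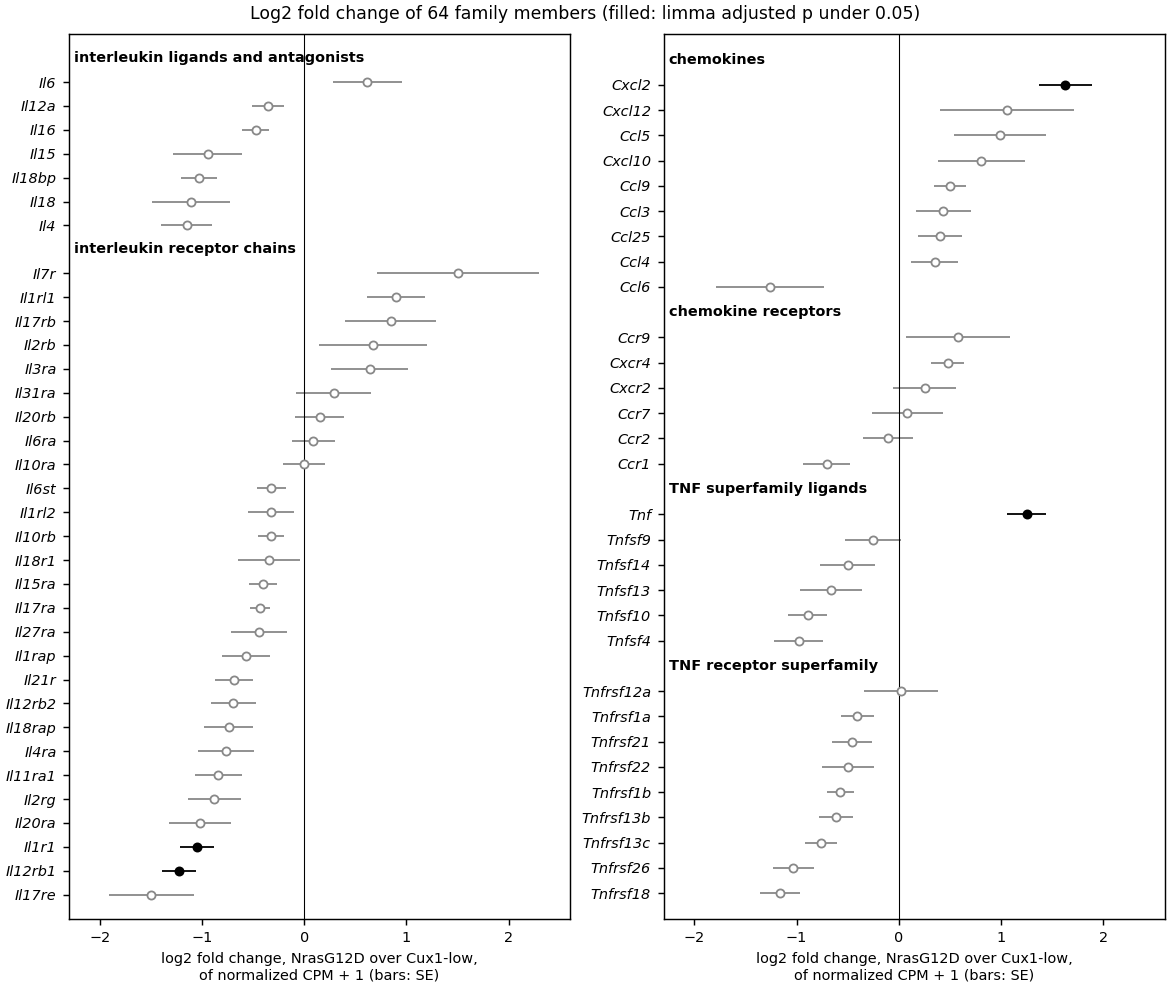
Log2 fold change of 64 members (x axis, NrasG12D over Cux1-low, on the log2(normalized CPM + 1) scale) by role, with bars for the standard error from limma over 3 NrasG12D and 2 Cux1-low libraries. Filled points mark Cxcl2, Tnf, Il12rb1 and Il1r1, the 4 members past the threshold, and 41 of the 64 points lie left of 0.

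The calls depended on which libraries were in the fit. Without NrasG12D library 1 or NrasG12D library 2, 0 members passed limma at the threshold. In those fits 27 and 32 of the 65 members had an unadjusted limma p under 0.05, as had 2169 and 2599 of the 11352 listed genes. They called 3 and 22 of all listed genes. Without Cux1-low library 1 or Cux1-low library 2, only 1 library was left in that group, and 41 and 45 of the 65 members had negative signs. Without NrasG12D library 3, 12 members rose and 30 fell, in a fit that called 18.0% of all genes higher and 19.4% lower, 37.4% in either direction. Groups that did not overlap were then found in 38 members lower and 16 higher, against 37.0% and 36.5% of all genes. The log2 fold changes of Cxcl2, Tnf, Il12rb1 and Il1r1 kept their sign in all of these fits, at 1.46 to 2.14 for Cxcl2, 1.14 to 1.39 for Tnf, -1.31 to -1.14 for Il12rb1 and -1.17 to -0.95 for Il1r1 over the 13 alternatives and the fit of all 5 libraries.

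Among the TNF superfamily ligands, Tnf stood against the others. It was at 15.5, 12.1 and 11.8 normalized CPM in NrasG12D libraries 1, 2 and 3, against 5.0002 and 4.81 in the Cux1-low libraries. All 3 NrasG12D libraries lay above both Cux1-low libraries, and library 3 lay close to library 2. Tnf rose 2.68-fold by group means (log2 fold change 1.25, standard error 0.19, adjusted p = 0.0446 by limma). The gene lies on chromosome 17 (35199381 to 35202007) on the minus strand of mm10.

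The other 5 TNF ligands had negative signs and did not pass. Tnfsf10, which encodes the death receptor ligand TRAIL, was at 24.4, 20.4 and 28.7 normalized CPM in the NrasG12D libraries and at 51.8 and 40.6 in the Cux1-low libraries (log2 fold change -0.89, limma adjusted p = 0.0626). Tnfsf4, the gene of the T cell costimulator OX40 ligand, was at 1.69, 2.34 and 2.19 against 5.88 and 4.28 (log2 fold change -0.98, limma adjusted p = 0.0760). In both genes the groups did not overlap. Tnfsf13, which encodes the B-lineage factor APRIL, averaged 1.57 ± 0.703 in NrasG12D and 2.96 ± 0.0304 in Cux1-low libraries (SD, n = 3 and 2), and Tnfsf14, which encodes LIGHT, averaged 7.14 ± 2.29 and 10.2 ± 0.750. Both again kept the groups apart. Tnfsf9, the gene of the 4-1BB ligand, overlapped between the groups, at 4.85 ± 1.47 in NrasG12D and 5.83 ± 0.625 in Cux1-low libraries.

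The TNF receptor superfamily lay lower in the NrasG12D libraries with a single exception, although none of its 9 members passed the test. In 8 of the 9 every NrasG12D library was below both Cux1-low libraries, against 27.0% of all listed genes. The median log2 fold change was -0.57. Tnfrsf18 encodes GITR, a costimulatory receptor of T cells. It was at 16.6, 14.0 and 21.3 normalized CPM in NrasG12D libraries 1, 2 and 3, against 39.7 and 39.1 in the Cux1-low libraries (log2 fold change -1.16, standard error 0.19, adjusted p = 0.0508 by limma). Its adjusted p lay just above the threshold, and with either rescaling of the columns Tnfrsf18 was called lower. Tnfrsf26, a mouse gene next to the decoy TRAIL receptor gene Tnfrsf22 on chromosome 7, was at 13.1, 12.2 and 17.7 against 33.2 and 27.1 (log2 fold change -1.03, limma adjusted p = 0.0581). Tnfrsf22 itself was at 5.23, 4.28 and 7.47 against 8.77 and 7.70, with library 3 close to the Cux1-low level. Reads of Tnfrsf22 may be shared with a close copy.

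Receptors for B cell survival factors were among the lower ones. Tnfrsf13c, which encodes the BAFF receptor, was at 9.59, 9.07 and 9.23 normalized CPM in the NrasG12D libraries, against 16.0 and 16.8 in the Cux1-low libraries (log2 fold change -0.76, limma adjusted p = 0.0621). The 3 NrasG12D values of Tnfrsf13c were close to each other, library 3 included. Tnfrsf13b, which encodes TACI, was at 14.3, 14.4 and 16.0 against 20.7 and 26.2. The B lineage genes lay the other way by sign, with a summed level of 269, 551 and 60.5 normalized CPM in NrasG12D libraries 1, 2 and 3 and 58.1 and 79.4 in the Cux1-low libraries (8 of 10 listed, all 8 with a positive sign). Their part in the B cell receptors' values was not tested.

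Both receptors of TNF itself lay lower where Tnf was higher. Tnfrsf1a, the receptor with a death domain, was at 82.2, 61.9 and 86.3 normalized CPM in the NrasG12D libraries, against 101 and 101 in the Cux1-low libraries, with a log2 fold change of -0.41 (standard error 0.16, adjusted p = 0.142 by limma). Tnfrsf1b, which lacks that domain, was at 94.1, 80.1 and 104 against 136 and 138 (log2 fold change -0.57, standard error 0.13, adjusted p = 0.0710 by limma). Neither receptor passed. Tnfrsf21, which encodes death receptor 6, averaged 133 ± 32.6 in NrasG12D and 179.6 ± 1.36 in Cux1-low libraries (SD, n = 3 and 2), with library 3 at 168. Tnfrsf12a, the receptor for TWEAK, was the exception in sign, at 5.65 ± 2.54 and 5.25 ± 1.10, and its groups overlapped.

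**Figure D2:**
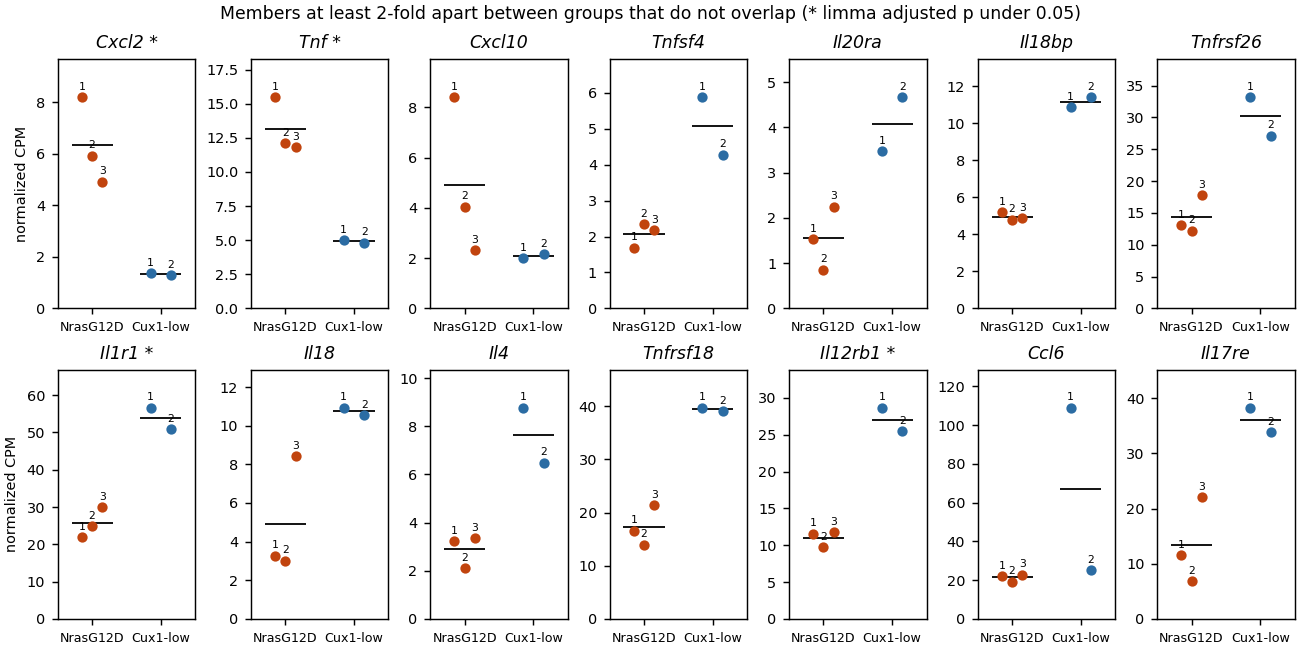
Normalized CPM (y axis, from 0) of the 14 members whose groups do not overlap and differ at least 2-fold, in NrasG12D (red, left) and Cux1-low (blue, right) libraries; points are libraries with their numbers, lines are group means, and asterisks mark limma adjusted p under 0.05. Cxcl2, Tnf and Cxcl10 lie higher in NrasG12D, the other 11 lie lower, and Ccl6 is high only in Cux1-low library 1.

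Of the 14 members at least 2-fold apart without overlap, 3 were higher and 11 lower, 4.62% and 16.9% of the family. The same held for 1.60% and 4.80% of all listed genes. NrasG12D library 3 often took an intermediate position: 24 members differed at least 2-fold on the log2 scale between NrasG12D libraries 1 and 2 and the Cux1-low libraries. In 13 of these library 3 was nearer to NrasG12D libraries 1 and 2, and in 11 nearer to the Cux1-low libraries. Tnf, Cxcl2, Il12rb1, Il1r1, Il18bp, Il4 and Tnfsf4 belonged to the first set, Il18, Il15, Il2rg and Il7r to the second.

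Interleukin ligands and antagonists were lower in 6 of 7 by sign, with a median log2 fold change of -0.95 and none past the test. Il18bp, which encodes a soluble inhibitor that binds interleukin-18, was at 5.18, 4.79 and 4.86 normalized CPM in NrasG12D libraries 1, 2 and 3, against 10.9 and 11.4 in the Cux1-low libraries. The values within each group were close, and library 3 lay with libraries 1 and 2. The log2 fold change was -1.03 (standard error 0.18, adjusted p = 0.0508 by limma). Exons of Il18bp overlap those of Numa1 on the other strand, and Numa1 had a log2 fold change of -0.48 (limma adjusted p = 0.131), so the reads of the 2 genes may not have been kept apart.

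Il18, the cytokine that this inhibitor binds, was at 3.28, 3.02 and 8.44 normalized CPM in NrasG12D libraries 1, 2 and 3, against 10.9 and 10.5 in the Cux1-low libraries. Library 3 lay near the Cux1-low level, and the groups did not overlap (log2 fold change -1.10, limma adjusted p = 0.116). Il15, a growth factor of natural killer and memory T cells, also had library 3 nearest to the Cux1-low libraries, at 18.7, 13.9 and 33.4 against 36.2 and 45.6 (log2 fold change -0.95, limma adjusted p = 0.121). Il4, the cytokine of type 2 responses, was at 3.23, 2.11 and 3.34 against 8.77 and 6.50 (log2 fold change -1.15, limma adjusted p = 0.0667). Basophils and mast cells are known sources of Il4 in mice. The summed level of 9 listed genes of mast cells, basophils and eosinophils was 3020, 2060 and 1330 in the NrasG12D libraries and 2540 and 1530 in the Cux1-low libraries, with overlapping groups, while its eosinophil granule genes Epx (log2 fold change -1.11, limma adjusted p = 0.0430) and Prg2 (log2 fold change -1.27, limma adjusted p = 0.0430) fell. Their part in the level of Il4 was not tested.

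Il16, whose product is a ligand of CD4, was at 178, 172 and 224 normalized CPM in the NrasG12D libraries, against 266 and 265 in the Cux1-low libraries (log2 fold change -0.48, limma adjusted p = 0.0873). Il12a, which encodes the p35 subunit of interleukin-12, overlapped between the groups at 46.0 ± 6.47 in NrasG12D and 58.9 ± 8.17 in Cux1-low libraries (SD, n = 3 and 2). Il6, the acute-phase cytokine, was the only interleukin with a positive sign, at 5.08, 4.22 and 3.04 against 3.53 and 1.40, and its groups overlapped.

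Interleukin receptor chains lay lower as a majority, with 19 of 27 negative signs and a median log2 fold change of -0.40. In 17 chains all NrasG12D libraries lay below both Cux1-low libraries, in 1 they lay above, and 9 overlapped. Over all listed genes the groups were separated in 27.0% lower and 26.5% higher, 53.5% in either direction. Il12rb1 and Il1r1 fell and 25 chains did not pass. Without NrasG12D library 3, 5 of the 27 chains rose and 13 fell, in a fit that called 18.0% of all listed genes higher and 19.4% lower.

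The chains of interleukin-12 type receptors, which share the fold of gp130, held the member with the smallest p of all 65. Il12rb1 encodes the chain common to the receptors of interleukin-12 and interleukin-23 and lies on chromosome 8 (70808449 to 70821424) of mm10. It was at 11.6, 9.70 and 11.8 normalized CPM in NrasG12D libraries 1, 2 and 3, against 28.7 and 25.5 in the Cux1-low libraries. Library 3 was level with library 1, and the groups were far apart: Il12rb1 was 2.46-fold lower by group means (log2 fold change -1.23, standard error 0.17, adjusted p = 0.0395 by limma). Its partner Il12rb2 was at 11.3, 10.4 and 16.3 against 22.01 and 19.5 (log2 fold change -0.69, limma adjusted p = 0.10). Exons of Il12rb2 overlap those of Serbp1 on the other strand, which had the opposite sign (log2 fold change 0.41, limma adjusted p = 0.0815). Both chains of the interleukin-12 receptor thus had the same sign, and only Il12rb1 passed.

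Il11ra1, the interleukin-11 receptor, was at 41.7, 25.1 and 39.0 normalized CPM in the NrasG12D libraries, against 57.6 and 67.9 in the Cux1-low libraries (log2 fold change -0.84, limma adjusted p = 0.0831). A near-identical copy of this gene is known in mice and its exons overlap those of Ccl27a, so its level is uncertain. Il6st, which encodes the signalling chain gp130 itself, was at 28.5, 31.4 and 26.2 against 36.7 and 35.4, a small difference with separate groups. Il27ra averaged 48.9 ± 16.1 in NrasG12D and 64.3 ± 0.337 in Cux1-low libraries, and library 3 (62.9) lay at the Cux1-low level. Il6ra, the interleukin-6 binding chain, averaged 28.1 ± 7.04 and 25.9 ± 0.627, and Il31ra averaged 9.32 ± 4.03 and 7.003 ± 1.26. Both overlapped between the groups.

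Within the interleukin-1 receptor family, Il1r1 and Il1rl1 had opposite signs. Il1r1 encodes the signalling receptor of interleukin-1 and lies on chromosome 1 (40225080 to 40317257) of mm10. It was at 21.95, 24.8 and 30.1 normalized CPM in NrasG12D libraries 1, 2 and 3, against 56.6 and 51.0 in the Cux1-low libraries, with library 3 the nearest to the Cux1-low level and the groups apart. Il1r1 was 2.10-fold lower by group means (log2 fold change -1.05, standard error 0.17, adjusted p = 0.0452 by limma). It lost its call with a pseudocount of 0.1 (limma adjusted p = 0.0522) and with limma without a variance trend (adjusted p = 0.0505). Il1rl1, which encodes the interleukin-33 receptor ST2, was at 29.5, 50.7 and 31.8 against 15.2 and 23.7, and it was the only interleukin receptor chain with all NrasG12D libraries above both Cux1-low libraries. Its log2 fold change was 0.90 (standard error 0.28, adjusted p = 0.0980 by limma), and it did not pass.

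Il1rap, the accessory chain that Il1r1 and Il1rl1 products share, was at 12.3, 18.4 and 20.4 normalized CPM in the NrasG12D libraries, against 27.7 and 22.9 in the Cux1-low libraries (log2 fold change -0.57, limma adjusted p = 0.155). Il18rap, the accessory chain of the interleukin-18 receptor, was at 14.8, 16.3 and 23.1 against 35.9 and 25.6 (log2 fold change -0.74, limma adjusted p = 0.101). In both accessory chains the groups did not overlap. Il18r1, the ligand-binding chain, was at 1.80, 3.37 and 1.76 against 3.87 and 2.45 with overlapping groups. Il1rl2, the receptor of interleukin-36, was at 3.90, 4.39 and 2.92 against 4.71 and 5.05.

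Il17re, a receptor chain for interleukin-17C, had the most negative log2 fold change of the 65 members and did not pass. It was at 11.5, 6.79 and 22.1 normalized CPM in NrasG12D libraries 1, 2 and 3, against 38.3 and 33.8 in the Cux1-low libraries. The NrasG12D libraries were spread widely, with library 2 lowest and library 3 highest (log2 fold change -1.496, standard error 0.41, adjusted p = 0.0838 by limma). Il17ra, the chain common to the interleukin-17 receptors, was at 245, 236 and 257 against 324 and 341, a smaller and more even difference (log2 fold change -0.43, standard error 0.10, adjusted p = 0.0695 by limma). Il17rb, which binds interleukin-25, had the opposite sign and is described together with Il7r.

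Il2rg encodes the common gamma chain of the receptors for interleukins 2, 4, 7, 9, 15 and 21. It was at 134, 93.8 and 185 normalized CPM in NrasG12D libraries 1, 2 and 3, against 241 and 248 in the Cux1-low libraries (log2 fold change -0.88, limma adjusted p = 0.0894). Its partner Il4ra was at 50.2, 36.5 and 73.8 against 81.3 and 95.6 (log2 fold change -0.77, limma adjusted p = 0.120). For both chains library 2 was lowest and library 3 highest among the NrasG12D libraries. Il21r was at 39.0, 26.8 and 37.5 against 54.1 and 56.6 (log2 fold change -0.69, limma adjusted p = 0.0809). Il15ra, which presents interleukin-15, was at 23.4, 21.6 and 21.8 against 30.2 and 29.3 (log2 fold change -0.40, limma adjusted p = 0.110). These 4 chains had separate groups and none passed.

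Among the remaining chains, Il20ra was at 1.54, 0.856 and 2.25 normalized CPM in the NrasG12D libraries, against 3.48 and 4.67 in the Cux1-low libraries (log2 fold change -1.02, limma adjusted p = 0.0915). The lowest library rested on 15 reads. Its partner Il20rb averaged 2.33 ± 0.160 in NrasG12D and 2.02 ± 0.541 in Cux1-low libraries with overlapping groups. Il10rb, the second chain of the interleukin-10 receptor, was at 79.3, 71.8 and 89.6 against 96.5 and 105 (log2 fold change -0.33, limma adjusted p = 0.140), while the first chain, Il10ra, averaged 29.2 ± 6.66 and 28.9 ± 3.05. The chains of each of these receptors differed in whether the groups overlapped, and the difference between chains was not tested. Il3ra, the binding chain for the myeloid growth factor interleukin-3, was at 35.5, 13.7 and 30.9 against 17.0 and 14.2, and library 2 lay with the Cux1-low libraries.

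**Figure D3:**
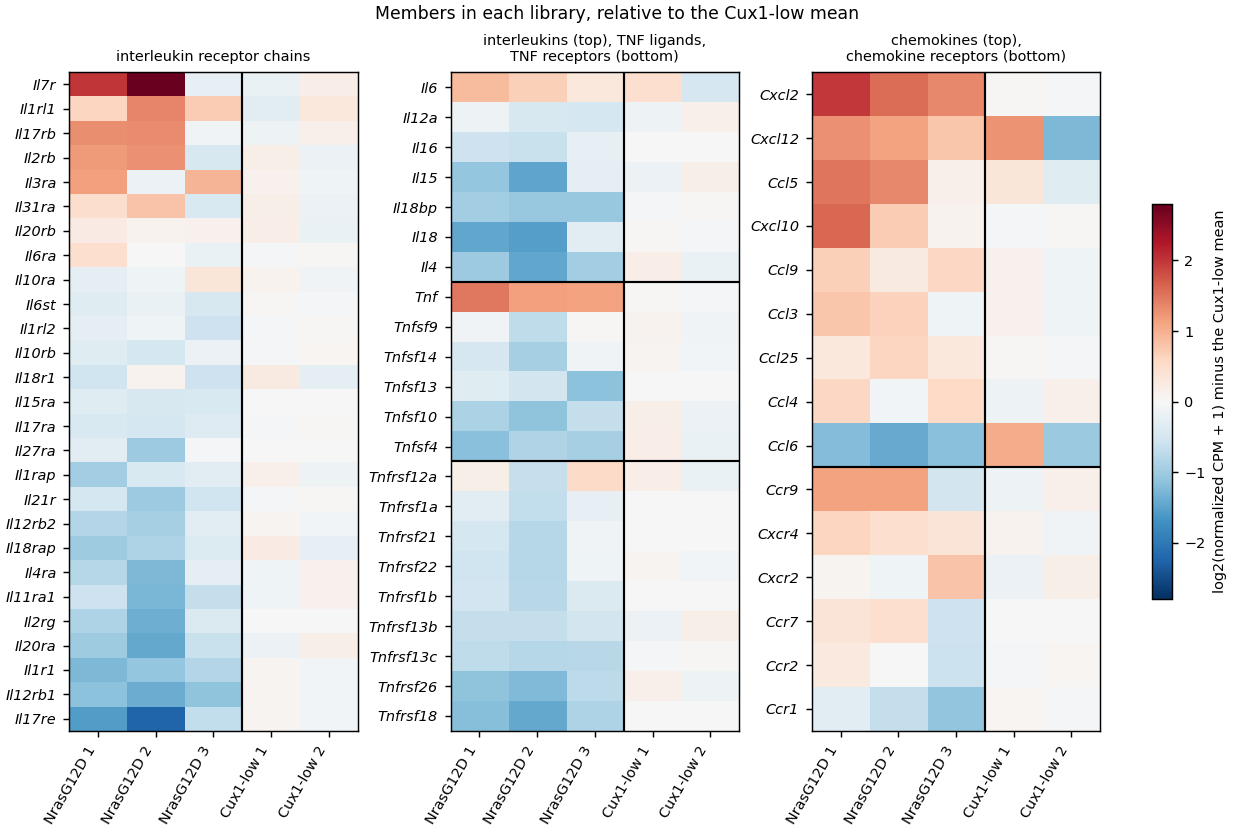
The 64 drawn members (rows) in each library (columns, NrasG12D left of the black line, Cux1-low right of it), as log2(normalized CPM + 1) minus the mean of the Cux1-low libraries; red is higher, blue lower. Most receptor rows are blue in the NrasG12D libraries, Cxcl2 and Tnf are red in all 3, and Il7r, Il17rb and Il2rb lie above the Cux1-low mean in NrasG12D libraries 1 and 2 and not in library 3.

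The chemokines were the role group with mainly positive signs: 8 of 9, with a median log2 fold change of 0.50. Cxcl2 rose and 8 did not pass. In Cxcl2, Cxcl10, Ccl9 and Ccl25 all NrasG12D libraries lay above both Cux1-low libraries, as in 26.5% of all listed genes. The 250 bases upstream of the RefSeq start are shown for Cxcl2, Cxcl10 and Ccl9, 3 of these 4 chemokines whose windows held a motif of inflammatory transcription factors, and for Tnf, the other member that rose, whose window held none. The 4 were picked with their values known. Capitals mark matches on either strand to GGG, 2 bases of any kind, TT, 1 base of any kind and CC, a form of the NF-kB site, or to TGANTCA, a form of the AP-1 site. The marked sites do not overlap each other. Sequences are from RefSeq on GRCm38.p6, 5′ to 3′ along each gene.
Cxcl2: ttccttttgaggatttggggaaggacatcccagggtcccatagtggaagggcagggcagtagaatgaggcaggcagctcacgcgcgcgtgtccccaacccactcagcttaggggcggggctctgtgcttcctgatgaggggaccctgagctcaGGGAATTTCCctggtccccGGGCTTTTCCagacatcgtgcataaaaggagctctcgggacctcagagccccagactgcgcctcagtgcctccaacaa
Cxcl10: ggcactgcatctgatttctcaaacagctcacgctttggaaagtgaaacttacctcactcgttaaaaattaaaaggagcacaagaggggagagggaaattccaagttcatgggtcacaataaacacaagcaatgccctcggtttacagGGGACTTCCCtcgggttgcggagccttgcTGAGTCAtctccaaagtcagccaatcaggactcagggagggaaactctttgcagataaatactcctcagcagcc
Ccl9: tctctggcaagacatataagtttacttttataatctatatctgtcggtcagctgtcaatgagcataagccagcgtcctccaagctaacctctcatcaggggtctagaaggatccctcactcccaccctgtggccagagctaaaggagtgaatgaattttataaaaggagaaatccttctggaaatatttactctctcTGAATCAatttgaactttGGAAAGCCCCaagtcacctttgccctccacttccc
Tnf: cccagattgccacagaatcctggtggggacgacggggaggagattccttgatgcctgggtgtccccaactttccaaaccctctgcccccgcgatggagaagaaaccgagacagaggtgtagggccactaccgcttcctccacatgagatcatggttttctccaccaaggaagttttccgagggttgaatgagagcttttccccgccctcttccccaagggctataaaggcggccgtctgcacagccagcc

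The window of Cxcl2 is chr5:90903649-90903898 on the plus strand, those of Cxcl10 and Ccl9 are chr5:92348890-92349139 and chr11:83578637-83578886 on the minus strand, and that of Tnf is chr17:35202008-35202257 on the minus strand. Cxcl2 held 2 NF-kB matches, and Cxcl10 and Ccl9 held 1 NF-kB and 1 AP-1 match each. RefSeq windows, which run from 250 bases before to 50 bases after a start, were given for 50 of the 65 members. At least 1 window had the NF-kB letters in 10 of these 50 (20.0%), against 5.48% of 27025 genes with windows. The AP-1 letters were found in 9 of the 50 (18.0%), against 8.97%, and TTCNNNGAA, a form of the STAT site, in 8 (16.0%), against 9.55%. A match is a string of letters, and no binding was measured.

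Cxcl2 encodes a chemokine that acts on the receptor CXCR2, and lies on chromosome 5 (90903871 to 90905938) of mm10. It was at 8.21, 5.93 and 4.92 normalized CPM in NrasG12D libraries 1, 2 and 3, against 1.37 and 1.30 in the Cux1-low libraries, where the lowest value rested on 27 reads. All NrasG12D libraries were high, library 1 the most. Cxcl2 rose 4.76-fold by group means (log2 fold change 1.63, standard error 0.26, adjusted p = 0.0452 by limma). With a filter of 5 normalized CPM in 2 libraries it lost its call (limma adjusted p = 0.0529).

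Cxcl10, an interferon-induced chemokine, was at 8.41, 4.05 and 2.31 normalized CPM in NrasG12D libraries 1, 2 and 3, against 2.01 and 2.17 in the Cux1-low libraries, so library 3 was barely above the Cux1-low values (log2 fold change 0.81, standard error 0.42, adjusted p = 0.233 by limma). Ccl9, a mouse CC chemokine, was at 194, 144 and 180.1 against 132 and 111 (log2 fold change 0.50, standard error 0.16, adjusted p = 0.0972 by limma). Neither passed. Its neighbour on chromosome 11, Ccl6, was at 22.3, 19.3 and 22.8 against 109 and 25.2. Most of that difference came with Cux1-low library 1: the log2 fold change was -1.26 over all libraries (limma adjusted p = 0.157) and -0.22 without it. The basophil and mast cell gene Fcer1a was also high in that library, at 31.3, 32.2 and 29.1 in the NrasG12D libraries and 80.2 and 26.0 in the Cux1-low libraries. Its list as a whole was not highest there, with a summed level of 2540 in Cux1-low library 1 and 3020 in NrasG12D library 1. Mcpt8 (257 and 437) and Prss34 (1510 and 1990) of that list were likewise higher in NrasG12D library 1. The part of these genes in the level of Ccl6 was not tested.

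Ccl3, Ccl4 and Ccl5 encode inflammatory CC chemokines. Ccl3 was at 61.3, 55.8 and 32.4 normalized CPM in the NrasG12D libraries, against 38.2 and 32.6 in the Cux1-low libraries, with library 3 at the Cux1-low level. Ccl4 was at 47.0, 29.4 and 46.9 against 28.4 and 34.5, with library 2 at the Cux1-low level instead. Both had positive signs and overlapping groups. Ccl25, the ligand of CCR9, was at 4.26, 5.48 and 4.19 against 3.33 and 3.18 (log2 fold change 0.40, limma adjusted p = 0.242). Exons of Ccl25 overlap those of Elavl1. Cxcl12, the niche chemokine, was at 12.6, 11.3 and 8.63 against 12.5 and 1.35, and the Cux1-low libraries differed from each other more than the groups did.

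Chemokine receptors showed no common sign (4 positive, 3 negative, median log2 fold change 0.08, which turned to -0.05 without NrasG12D library 1), and none of the 7 passed. Cxcr4, the receptor of CXCL12, was at 22.2, 20.0 and 18.5 normalized CPM in the NrasG12D libraries, against 15.1 and 13.3 in the Cux1-low libraries (log2 fold change 0.48, standard error 0.16, adjusted p = 0.111 by limma), all NrasG12D libraries above. Ccr1, a receptor of inflammatory CC chemokines on myeloid cells, was at 34.9, 27.3 and 19.9 against 45.6 and 42.6, all below (log2 fold change -0.70, standard error 0.23, adjusted p = 0.104 by limma). For Ccr1 library 3 was the lowest of the 5. Ccr2, the receptor of monocyte chemoattractants, was at 153, 128 and 82.3 against 122 and 129.8, and Cxcr2, the receptor of the Cxcl2 product, at 7.39, 6.28 and 12.8 against 6.03 and 7.94. Library 3 was the lowest for Ccr2 and the highest for Cxcr2, and both overlapped between the groups. Ccr7, a homing receptor of lymphocytes and dendritic cells, averaged 3.27 ± 1.48 in NrasG12D and 2.84 ± 0.0664 in Cux1-low libraries.

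Several members, some of them with lymphoid roles, were high in NrasG12D libraries 1 and 2 and not in library 3. They were picked after their values were seen, and are given as values. Il7r, the interleukin-7 receptor of early lymphoid cells, was at 16.5, 28.8 and 2.73 normalized CPM in NrasG12D libraries 1, 2 and 3, against 2.84 and 4.04 in the Cux1-low libraries (log2 fold change 1.504, standard error 0.79, adjusted p = 0.232 by limma). Il17rb was at 9.90, 10.2 and 3.16 against 3.04 and 3.85, and Il2rb, the beta chain of the receptors for interleukins 2 and 15, at 5.39, 5.71 and 1.03 against 2.11 and 1.49. Ccr9, a homing receptor of lymphoid progenitors, was at 9.33, 9.42 and 2.31 against 3.28 and 4.24, and Ccl5 at 8.82, 7.76 and 2.79 against 3.38 and 1.73. For Il7r, Ccr9 and Il2rb, library 3 lay below both Cux1-low libraries. None of these 5 genes passed, and all overlapped between the groups. The pattern was not confined to lymphoid genes. Ccl3 and Il31ra (10.2, 12.8 and 4.92 against 7.89 and 6.11) shared it, as did Ly86 of the monocyte and macrophage list (34.7, 25.3 and 7.41 against 9.66 and 12.3). Without library 3, limma called higher 8 of 8 B lineage, 7 of 8 erythroid, 4 of 7 monocyte and macrophage and 3 of 5 neutrophil genes. Over all genes the share was 18.0%. No gene of these lists was called lower in that fit.

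Among B lineage genes, Vpreb3 was at 20.2, 48.0 and 2.31 normalized CPM in NrasG12D libraries 1, 2 and 3, against 0.931 and 1.64 in the Cux1-low libraries. Of 12 T and NK cell genes, 3 were listed, with a summed level of 287, 182 and 335 against 234 and 250, nearly all of it Nkg7. Their part in the levels of Il7r, Il17rb, Il2rb, Ccr9 and Ccl5 was not tested. Of 12 monocyte and macrophage genes, 7 were listed (summed level 511, 368 and 353 in the NrasG12D libraries, 360 and 408 in the Cux1-low libraries), and of 10 neutrophil genes, 5 (19300, 12900 and 8060 against 7420 and 10500). Other lists differed between the groups as well. Of 10 erythroid genes 8 were listed, all with positive signs, and none passed. In 6 of these all NrasG12D libraries lay higher, against 26.5% of all listed genes. The summed level of the 8 was 4200, 6120 and 3010 in the NrasG12D libraries and 2290 and 2500 in the Cux1-low libraries. Of 10 dendritic cell genes 6 were listed (413, 300 and 283 against 864 and 600), 4 with negative and 2 with positive signs. Of these, only H2-Aa of MHC class II fell (log2 fold change -1.69, limma adjusted p = 0.0478). Cd74 (log2 fold change -1.54) and H2-Ab1 (-1.16) also lay lower without overlap. Zbtb46 lay higher without overlap (log2 fold change 0.74), while Itgax (0.17) and Bst2 (-0.16) overlapped between the groups. The lower sum therefore does not stand for the whole list. All 8 megakaryocyte genes had negative signs (675, 569 and 1140 against 1330 and 1350), as had the 4 listed of 8 endothelial and stromal genes (128, 103 and 149 against 193 and 198), and none of either list passed. The part of these lists in the family's values was not tested. No listed gene of any of these lists was at 0 in every library, and the genes not listed were not analysed here.

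**Figure D4:**
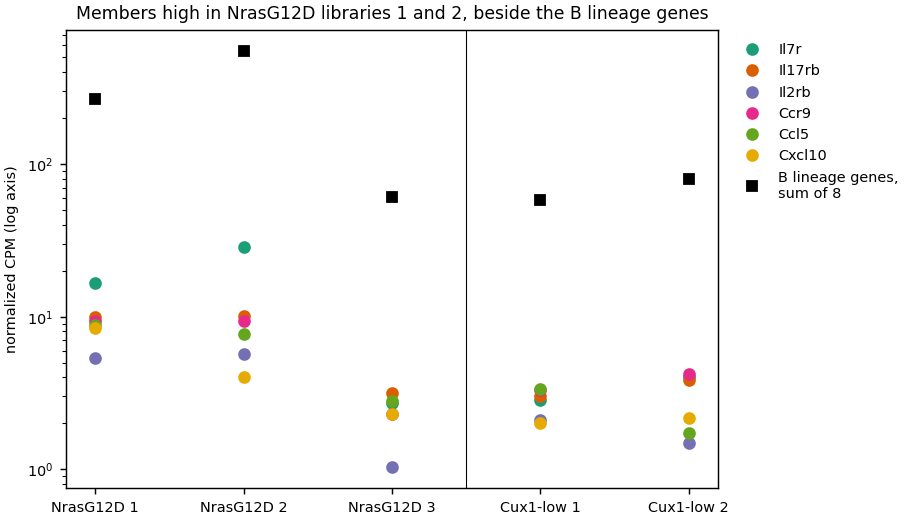
Normalized CPM (log axis) of Il7r, Il17rb, Il2rb, Ccr9, Ccl5 and Cxcl10 (coloured points) and the summed level of 8 B lineage genes (black squares) in each library. All are higher in NrasG12D libraries 1 and 2 than in the Cux1-low libraries, and NrasG12D library 3 lies near the Cux1-low values.

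Set side by side, ligands and their receptors shared a sign in some sets and not in others. For TNF the ligand rose and both receptors had negative log2 fold changes (-0.41 for Tnfrsf1a, -0.57 for Tnfrsf1b). Cxcl2 rose, and its receptor gene Cxcr2 had a log2 fold change of 0.25 and did not pass. Without NrasG12D library 3 the log2 fold change of Cxcr2 was -0.02. The interleukin-18 set had negative signs for Il18, its inhibitor Il18bp, and both receptor chains. The interleukin-15 set was negative for Il15, Il15ra and Il2rg and positive for Il2rb. For CXCL12 and CCL25 both the ligand and the receptor gene had positive signs, with none of the 4 genes past the test. The Cux1-low values of Cxcl12 were 12.5 and 1.35, and the higher of them lay among the NrasG12D values. For Ccr9, NrasG12D library 3 (2.31) lay below both Cux1-low libraries.

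Levels of different members were compared per kilobase of annotated exon. In the NrasG12D libraries the highest were Ccl3 (65.1 normalized CPM per kb), Ccl4 (62.3), Il2rg (57.6) and Ccl9 (56.7), followed by Tnfrsf21 (32.4). In the Cux1-low libraries Il2rg led (102.4 normalized CPM per kb), followed by Ccl4 (47.7), Ccl3 (46.2), Tnfrsf21 (43.7) and Ccl9 (39.9). The order of Ccl3, Ccl4, Il2rg and Ccl9 in the NrasG12D libraries is not resolved, since their libraries overlap. The ranges of Tnfrsf21 and Il2rg overlap there too, although Il2rg lay above Tnfrsf21 within each NrasG12D library. In the Cux1-low libraries the order of Ccl4, Ccl3, Tnfrsf21 and Ccl9 is not resolved as a whole, and Il2rg lay above all of them in both libraries. Tnf was at 8.02 per kb in the NrasG12D libraries and 2.99 in the Cux1-low libraries, and Cxcl2 at 3.07 and 0.646. Exon lengths take all annotated exons of a gene, which understates genes with long rare exons such as Ccr9.

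Genes that carry cytokine signals inside the cell had mainly negative signs too. All 11 genes of the JAK and STAT list had negative signs (median log2 fold change -0.33), 1 fell and 10 did not pass by limma at the threshold. In 9 of the 11 all NrasG12D libraries lay below both Cux1-low libraries, against 27.0% of all listed genes.

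Of 14 inhibitors of cytokine receptors, 11 had negative signs and none passed. Cish, a target gene of STAT5 that damps it, was at 7.74, 8.62 and 12.6 normalized CPM in the NrasG12D libraries, against 32.3 and 23.4 in the Cux1-low libraries (log2 fold change -1.45, limma adjusted p = 0.0508), and Socs2 at 1.33, 1.65 and 2.13 against 7.16 and 4.67 (log2 fold change -1.34, limma adjusted p = 0.0581). In both the groups did not overlap.

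Of the 12 adaptors and kinases below interleukin-1 receptors, 9 had negative signs (median -0.18) and none passed. The ubiquitin ligase gene Peli1 was at 53.1, 51.1 and 59.5 in the NrasG12D libraries, against 79.2 and 72.2 in the Cux1-low libraries, and the kinase gene Irak4 at 39.4, 35.4 and 39.9 against 49.2 and 52.8. Of the 14 genes below TNF receptors, 12 had negative signs (median -0.35) and none passed. Traf1, an NF-kB target gene, was at 2.46, 2.05 and 4.98 against 8.77 and 9.72 (log2 fold change -1.36, limma adjusted p = 0.0726), and Birc2 at 66.3, 68.0 and 70.5 against 93.8 and 87.7. The sign of Traf1 was opposite to that of Tnf and Cxcl2, and a link between these genes was not tested.

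Of 12 listed haematopoietic cytokine receptors with other names, 8 had negative and 4 positive signs, and none passed. Epor, the erythropoietin receptor, was at 163, 205 and 105 normalized CPM in the NrasG12D libraries, against 69.9 and 81.4 in the Cux1-low libraries (limma adjusted p = 0.0802), in the same direction as the erythroid list that holds it. Of 9 listed chemokine system genes outside the family names, none passed, and Cx3cl1, the ligand fractalkine, was at 1.90, 1.65 and 5.10 against 11.7 and 11.1 (log2 fold change -1.78, limma adjusted p = 0.0621), and the chemokine-like gene Cmtm6 at 184, 182 and 212 against 239 and 242.

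The authors' deposited table, which holds their own comparison, called 24 members. At an adjusted p under 0.05, the authors' deposited table had 4 members higher and 20 lower, against 6.97% and 9.14% of all listed genes (16.1% in either direction). The 4 higher ones in the authors' deposited table were Cxcl2, Tnf, Il1rl1 and Ccl9. The authors' deposited table gave log2 fold changes of 2.25 for Cxcl2, 1.42 for Tnf, -1.29 for Il12rb1 and -1.07 for Il1r1, the same signs as above. Within the authors' deposited table, 14 of the 43 receptors and 6 of the 22 ligands were lower. The 14 receptors included 5 of the 9 TNF receptor superfamily genes. That table comes from the same 5 libraries and is no independent evidence.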

How the data were processed

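RNA-seq of sorted HSPCs was deposited as 1 table, with 1 column for each of 3 NrasG12D and 2 Cux1-low libraries. TopHat, HTSeq, edgeR and the builds hg19 and mm10 are named in the submitters' processing notes, without versions or roles. The deposited signal values are headed CPM, but the columns sum to 971746 to 1026780, so they appear to hold a composition factor per library, which no header or label states. Every listed gene has a value above 1 in at least 3 libraries, so a gene above 1 only in the 2 Cux1-low libraries could not be listed, and counts of lower members do not cover such genes. The deposited table also gives the authors' log2 fold change, a likelihood ratio score and a p-value with its adjusted value per gene. Every value was a whole multiple of a step per library (tolerance 0.001), from which read numbers were inferred. The recovery was not established for use as counts, so those numbers only describe depth and no count test was run on them.

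Differences were tested with limma 3.58.1 (trended variance, R 4.3.3) on log2(value + 1), for genes at 1 or more in 2 or more libraries, a filter that removed none, so all 65 members were tested. Fold changes on this scale understate those of low genes. The script was tested on simulated data. Values after ± are SDs over 3 NrasG12D or 2 Cux1-low libraries. Values in every library were given for members past the threshold, for those at least 2-fold apart without overlap and for the 3 with the smallest p in each role group, and most other members followed. The members and lists were chosen with earlier results of these data known. A further 1 symbol matched the pattern, and it and the values of some other single genes are not reported here; counts over the family and the lists include those other genes. Alternatives were other pseudocounts (0.1, 0.5), a filter of 5, 2 rescalings, 2 variance models, a replicate block and each library left out. Positions and exons are GENCODE M21 on mm10, and promoter windows are RefSeq's. Exons of 20 members overlap another gene, for 7 of them a listed gene, and no source used here states if strand was counted, so those levels are uncertain. Python 3.11.15, numpy 2.4.6, pandas 2.3.3 and matplotlib 3.10.9 were used.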

Additional observations from a re-analysis of the deposited data

How the results depend on the processing

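Over all listed genes 128 passed, and the count of members that rose was 2 and that fell 2. The count of rises was 1 with a filter of 5 normalized CPM, which left 54 members tested, and 15 with the replicate number as a block. Over all genes tested, those fits called 25 and 1892 higher, against 29 with the settings used above. The count of falls was 1 with a pseudocount of 0.1 and 32 with the replicate block. It was 4 with columns rescaled to equal sums and 4 with columns scaled to a common median. Over all listed genes those fits called 63, 2271, 182 and 147 lower, in that order, against 99 with the settings used above. Leaving out each library in turn gave 0 to 12 rises and 0 to 30 falls. The high ends of both ranges came without NrasG12D library 3, where 4243 of all genes passed. For Cxcl2, Tnf, Il12rb1 and Il1r1 the limma adjusted p ranged over the alternatives from 1.16e-05 to 0.365, from 8.88e-05 to 0.365, from 4.05e-05 to 0.365 and from 2.22e-05 to 0.400. The median log2 fold change of the chemokine receptors turned negative without NrasG12D library 1, and ranged from -0.0499 to 0.15 with each library left out in turn. The cause was not tested in any of these cases. Of 283 log2 fold changes of 22 members under the alternatives, 224 stayed on the same side of the threshold, 40 gained a call, 19 lost it and none turned sign.

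The replicate block called 4163 of all genes. The labels do not tie a replicate number to a litter, batch or day, and only 2 numbers are shared. Deviations from the group means correlated at -0.19 for number 1 and at -0.00354 for number 2. With 2 Cux1-low libraries their deviations mirror each other, so these correlations cannot tell whether a litter, batch or day was shared. The block leaves NrasG12D library 3 alone in its own. Tnfsf13 and Il20ra rest on as few as 13 and 15 reads in a library.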

Other observations

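Members that lie side by side in the genome did not always share a sign. On chromosome 1, Il1r1 (from 40225080), Il1rl2 (from 40324610), Il1rl1 (from 40429570), Il18r1 (from 40465552) and Il18rap (from 40515362) follow each other on the plus strand of mm10. Their log2 fold changes (NrasG12D over Cux1-low) were -1.05, -0.32, 0.90, -0.34 and -0.74, so Il1rl1 had a positive sign between neighbours with negative ones. On chromosome 11, Ccl5 (from 83525778), Ccl9 (from 83572919), Ccl6 (from 83587882), Ccl3 (from 83647844) and Ccl4 (from 83662584) had log2 fold changes of 0.99, 0.50, -1.26, 0.43 and 0.35. On chromosome 7, Il4ra (from 125552120) and Il21r (from 125603429) lie next to each other and had -0.77 and -0.69. On chromosome 9, Ccr1 and Ccr2 lie within a cluster of chemokine receptor genes and had -0.70 and -0.10. Of all these genes only Il1r1 passed the test.

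Slc6a20a, a gene on the other strand whose exons overlap those of Ccr9, had a log2 fold change of 1.91 (limma adjusted p = 0.0533), beside 0.58 for Ccr9.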
